A study of Glycine max with 6 samples.

Results

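Cytochrome P450s outside the phenylpropanoid and isoflavonoid routes were read in soybean (Glycine max) leaf after a spray with a Nod factor. The members are soybean probe sets whose only mapped gene carries a P450 name, such as CYP82A3, in its symbol or synonyms. Families CYP73, CYP75, CYP84, CYP93 and CYP98 were left out, as were cyclophilins, whose symbols are CYP and a number alone. This gave 36 of 37593 soybean probe sets, for 24 genes in 12 families, with each probe set mapped to 1 gene. Of the 37593, 28546 have no mapped gene, so any P450 probe set among those was not counted.

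All plants were of the cultivar OAC Bayfield and were grown with 16 h of light and 8 h of darkness. At the V1 stage their first trifoliolate leaf received 2 mL of spray. In the LCO group the spray held 1e-07 M lipo-chitooligosaccharide, the Nod factor by which rhizobia signal to legume roots, with 0.02% Tween 20. In the water group it held water with the same detergent. The sprayed leaf was taken 48 h later, and each group has 3 arrays. The sources do not say whether arrays of a group came from separate plants, pools or extracts. The p-values therefore reflect array-to-array spread that could be technical.

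P450s are haem enzymes of the endoplasmic reticulum or plastid that mostly insert an oxygen atom into a small molecule, with electrons usually delivered by a reductase partner. Plants use some families to make or break down hormones, sterols, cutin and carotenoids, and others to build defence compounds or detoxify foreign chemicals. In legumes the CYP71, CYP81, CYP82 and CYP83 families are tied mainly to such specialised metabolism, CYP74 to oxylipins and jasmonate, CYP90 to brassinosteroids and CYP97 to carotenoids.

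Water 1 and water 2 stood closer together than any other pair of arrays. Over the 28 tested P450 probe sets their difference had an SD of 0.31 on the log2 scale. Water 3 differed from water 1 by an SD of 0.69 and from LCO 1 by 0.65 over the same probe sets. Results for the called members, and for some others, are given below with and without single arrays. Leaf markers (Rubisco activase, CAB3 and PSAD) were tested in 13 of 16 probe sets, and none changed; their summed level was 16.4 to 16.5 in water and 16.4 to 16.5 with LCO (log2 of the sum). No Rubisco small or large subunit probe set was found by symbol. Seed storage and trypsin inhibitor probe sets were below the background level in 13 of 16, with summed levels of 10.0 to 10.7 in water and 8.50 to 9.52 with LCO. Nodule markers were below it in 5 of 8, with summed levels of 7.27 to 9.18 in water and 8.41 to 9.82 with LCO; no leghaemoglobin probe set was found by symbol. Phloem SEO markers were below it in 4 of 11, with summed levels of 7.88 to 8.00 in water and 8.41 to 9.04 with LCO. No probe set of these 3 lists passed the test, and their part in the P450 results was not tested.

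The comparison asks which of these enzymes' transcripts differed between LCO and water. Of the 36 probe sets, 28 for 20 genes passed the filter on dim probe sets. In limma with Benjamini-Hochberg adjustment over all 29286 tested soybean probe sets, CYP82A3 rose in 1 of its 3 tested probe sets and CYP82A4 fell in its only probe set. CYP82A4 had entered the test only through its water arrays, as described below. The remaining 26 did not pass. Thus 2 of 28 members (7.14%) were called, against 3.55% of all tested probe sets; the 1 rise stands beside a background of 1.67% and the 1 fall beside 1.88%. With counts this small, the shares do not set the members apart from the rest. The values of the water and LCO arrays did not overlap in 11 of the 28 (39.3%), 4 higher and 7 lower with LCO, against 31.5% of all tested probe sets, 15.3% higher and 16.3% lower. An unadjusted p under 0.05 was found for 12 of the 28 (42.9%), against 25.8% of all. The median log2 change was -0.08 over the members and -0.01 over all tested probe sets, and the median size of the change was 0.45 and 0.20. The members also spread more within groups. Their median SD was 0.29 in water and 0.26 with LCO, against 0.14 and 0.18 over all tested probe sets. Since whole leaves were used, fewer cells of a type and less RNA per cell cannot be told apart in any of these values.

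**Figure D1:**
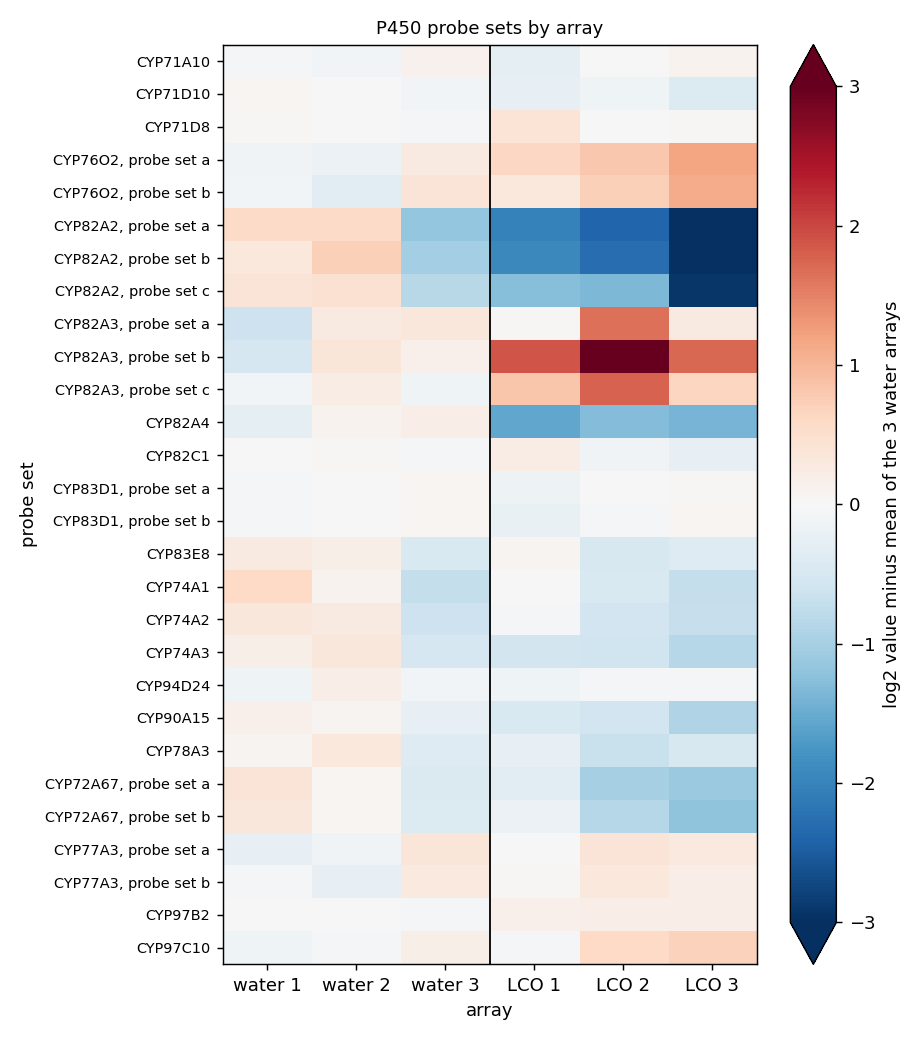
Each row is 1 of the 28 tested P450 probe sets and each column 1 array; colour gives the log2 value minus the mean of the 3 water arrays of that probe set. The strongest colours lie in the rows of CYP82A2, CYP82A3 and CYP82A4, and water 3 shares the direction of the LCO arrays in the CYP82A2 rows.

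Changes of at least 1 on the log2 scale, in either direction, were seen in 6 of the 28 probe sets (21.4%), against 4.68% of all tested. These 6 belong to the CYP82 family and come only from CYP82A2 (3 probe sets), CYP82A3 and CYP82A4. Probe sets of 1 gene are not separate members, so the share rests on few genes. With CYP82A4 taken at the lower bound of its fold, the count was 5 (17.9%). The family's remaining tested gene, CYP82C1, had a smaller estimate. Its log2 values ran from 6.79 to 6.86 in water and from 6.58 to 7.05 with LCO, a change of -0.05 (SE 0.14). LOC100789410, which also has CYP82E13 as a synonym, was counted under CYP81 and was too dim to be tested. Among the other families the largest change in size was 0.87, in CYP76O2. The plot of changes by role shows this spread.

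**Figure D2:**
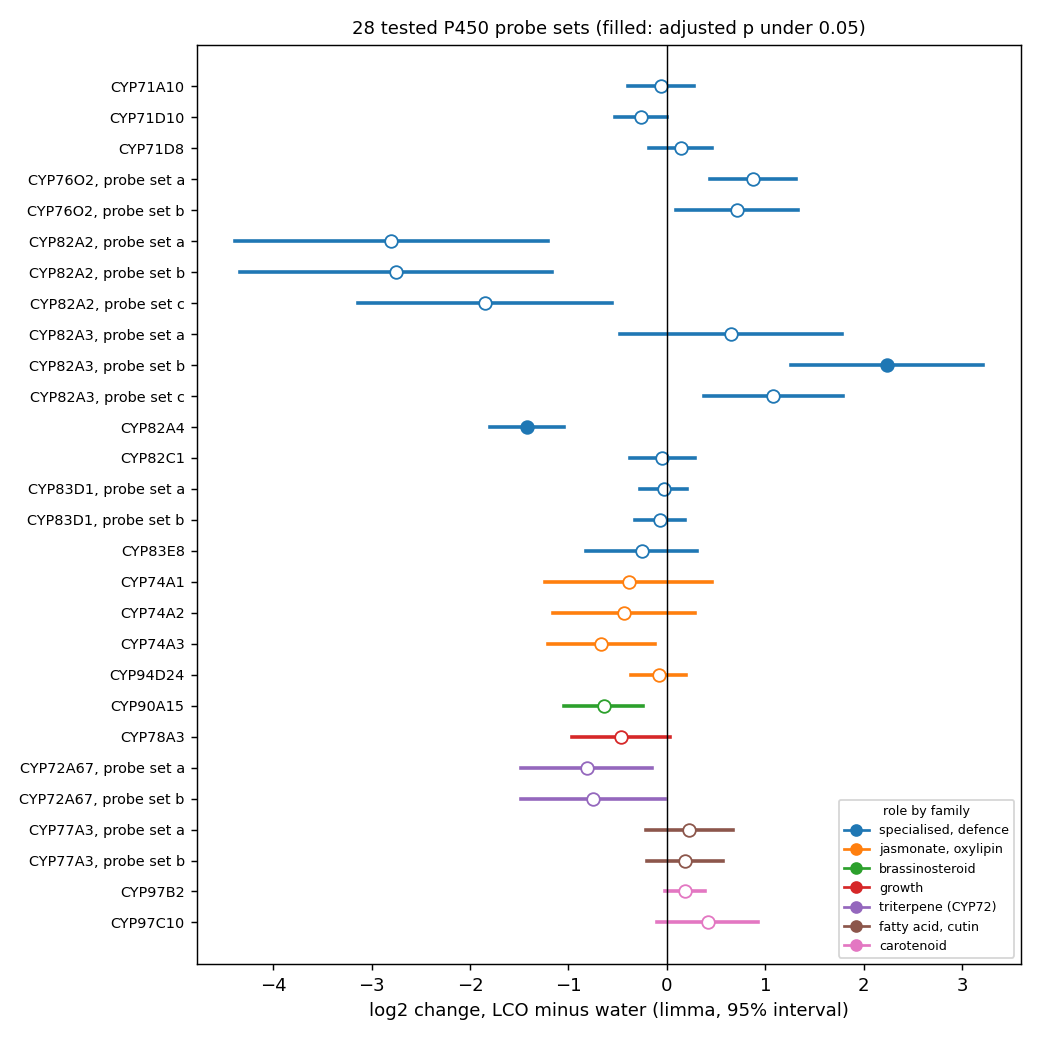
Points are log2 changes (LCO minus water) of the 28 tested P450 probe sets with 95% limma intervals, coloured by role and filled where the adjusted p was under 0.05. The 2 filled points, CYP82A3 probe set b and CYP82A4, lie on opposite sides of 0.

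CYP82 enzymes of legumes are counted among the P450s of specialised metabolism, and CYP82A3 has been tied to defence in soybean. The CYP82A3 probe set that rose, probe set b in the plots, has the s_at suffix. It read 6.79, 7.65 and 7.44 on water 1, 2 and 3. On LCO 1, 2 and 3 it read 9.18, 10.40 and 9.01. All LCO arrays lay above all water arrays, with LCO 2 highest. The means were 7.29 ± 0.45 in water and 9.53 ± 0.76 with LCO (log2, SD, n = 3). The difference was 2.24 (SE 0.41), or 4.72-fold, with limma adjusted p = 0.0408.

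Its call rested on all 6 arrays being used, with water 3 the exception. With water 1 left out the limma adjusted p was 0.157, and with water 2 left out it was 0.123. Leaving out LCO 2 gave 0.0540, LCO 1 gave 0.0695 and LCO 3 gave 0.0731, all adjusted p. Only the fit lacking water 3 kept the call, at an adjusted p of 0.0464. The change itself stayed between 1.80 and 2.50. When water 1 and 2 were averaged as 1 sample it was 2.20 (limma adjusted p = 0.130).

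The other probe sets of CYP82A3 gave smaller estimates. An s_at suffix on an Affymetrix probe set marks probes shared by several transcripts, whereas a plain at suffix marks probes meant for 1 transcript. The plain probe set built on the same sequence (probe set a) read 6.55, 7.44 and 7.51 in water and 7.21, 8.81 and 7.43 with LCO. Here the groups overlapped, LCO 2 alone stood above every water array, and the change was 0.65 (SE 0.47, limma adjusted p = 0.418). A further shared probe set (probe set c) read 4.07, 4.38 and 4.02 in water and 4.99, 5.92 and 4.80 with LCO. Its groups did not overlap, LCO 2 was again highest, and its change of 1.08 (SE 0.29) did not pass (limma adjusted p = 0.0940). The remaining CYP82A3 probe set lay between 2.62 and 3.05 on all arrays, below the background level of 3.31, and was not tested.

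The distance between the probe sets also differed between the groups. Probe set b minus probe set a was 0.25, 0.21 and -0.08 on water 1, 2 and 3, and 1.97, 1.59 and 1.58 on LCO 1, 2 and 3. The means were 0.13 ± 0.18 and 1.71 ± 0.23 (log2 difference, SD, n = 3). The groups did not overlap, and the two-sided exact permutation test gave p = 0.1, the smallest that 3 against 3 allows. These probe sets were compared after their separate changes were seen, so the test adds no independent evidence. Averaged over its 3 tested probe sets, the gene CYP82A3 had a change of 1.32 (SE 0.39, limma adjusted p = 0.103 over gene means).

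CYP82A4 (LOC100778056), a relative of CYP82A3, is measured by 1 probe set, of the s_at type. It read 3.95, 4.34 and 4.45 on water 1, 2 and 3 and 2.68, 2.95 and 2.84 on LCO 1, 2 and 3. Every LCO array lay below the background level of 3.31 and every water array above it. The probe set therefore passed the filter on dim probe sets only through its water arrays. The means were 4.25 ± 0.27 and 2.82 ± 0.14 (log2, SD, n = 3). From the means, the probe set read at least 1.91-fold lower with LCO, a bound that leaves out the array spread. The limma adjusted p of 0.0102 rests on LCO values below background. The call held in 5 of 6 fits with an array left out and was lost without water 2 (adjusted p = 0.0639). It also held with water 1 and 2 averaged. A stricter filter at percentile 95 removed this dim probe set from the test.

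CYP82A2, another member of this subfamily, had the largest estimated change among the members but did not pass. Its 3 probe sets all read lower with LCO. Probe set b (x_at suffix), the brightest, read 7.29, 7.68 and 5.94 on water 1, 2 and 3 and 5.03, 4.69 and 2.93 on LCO 1, 2 and 3. Probe set a (at suffix) read 7.11, 7.11 and 5.36 in water and 4.51, 4.14 and 2.53 with LCO. Probe set c (s_at suffix) read 6.04, 6.12 and 4.83 in water and 4.38, 4.32 and 2.74 with LCO. In each the groups did not overlap. Water 3 stood between the other water arrays and LCO 1, and LCO 3 was lowest and the only array below background.

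The changes of CYP82A2 were -2.80 (SE 0.66, limma adjusted p = 0.0716) in probe set a, -2.75 (SE 0.66, adjusted p = 0.0740) in b and -1.85 (SE 0.54, adjusted p = 0.106) in c. The 95% interval of probe set a ran from -4.39 to -1.21. SDs in water were 1.01, 0.91 and 0.73, against a median of 0.29 over the members and 0.14 over all tested probe sets. Without water 3, probe sets a and b passed, with changes of -3.38 (adjusted p = 0.0326) and -3.27 (adjusted p = 0.0395). Probes of the x_at type may bind other transcripts too, and a and b share their source sequence, so the 3 probe sets are not independent measurements.

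CYP82A3 and CYP82A2 thus had estimates of opposite sign. CYP82A3 probe set b minus CYP82A2 probe set b was -0.49, -0.02 and 1.5 on the water arrays and 4.15, 5.71 and 6.08 on the LCO arrays. The groups did not overlap (two-sided exact permutation p = 0.1, the smallest possible). Both probe sets already separated the groups, in opposite directions, so this outcome was fixed in advance and adds no evidence. The pair was also chosen after its values were seen.

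**Figure D3:**
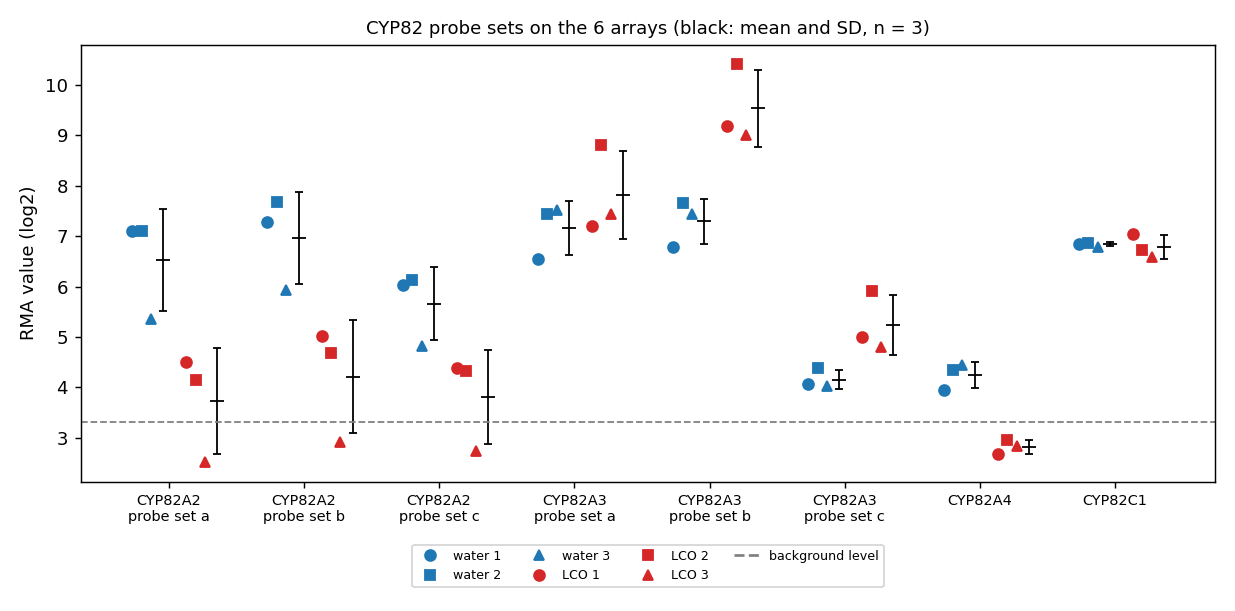
Log2 RMA values of the 8 tested CYP82 probe sets on each array, water in blue and LCO in red, with the mean and SD of 3 arrays in black and the background level of 3.31 dashed. CYP82A3 probe set b lies higher on all LCO arrays, CYP82A4 drops below the dashed line, and the CYP82A2 probe sets spread most within groups.

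CYP76O2, of a family whose plant members act largely on terpenes and other specialised metabolites, had the next largest estimates. Its plain probe set read 8.34, 8.27 and 8.70 on water 1, 2 and 3 and 9.07, 9.25 and 9.61 on LCO 1, 2 and 3. The groups did not overlap, water 3 was the highest water array and LCO 3 the highest of all. The change of 0.87 (SE 0.18) did not pass with all arrays (limma adjusted p = 0.0579) and passed without water 3 (adjusted p = 0.0357). The shared probe set read 8.78, 8.53 and 9.25 in water and 9.16, 9.58 and 9.97 with LCO. There water 3 lay above LCO 1, and the change was 0.71 (SE 0.26, adjusted p = 0.154).

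The CYP71 and CYP83 members lay close to their water values. CYP71A10, a soybean enzyme that metabolises phenylurea herbicides when expressed in tobacco, ran from 8.92 to 9.14 in water and from 8.71 to 9.12 with LCO, a log2 change of -0.06 with a 95% interval from -0.39 to 0.27. CYP83D1 had changes of -0.03 and -0.07 in its 2 probe sets, with intervals from -0.27 to 0.21 and from -0.33 to 0.18. CYP71D10 read lower on every LCO array, at 8.00, 8.12 and 7.83 against 8.31, 8.26 and 8.17, but the change of -0.26 (SE 0.11) did not pass (limma adjusted p = 0.200). CYP83E8 had a change of -0.26 (SE 0.24), and CYP71D8 (LOC100780605) of 0.14 (SE 0.13) in its 1 tested probe set.

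The 8 probe sets that did not pass the filter on dim probe sets belong to F6H1 (CYP71D9), a flavonoid 6-hydroxylase, CYP71A9, CYP81E11, LOC100789410 (CYP81E10 and CYP82E13 as synonyms), CYP71D8 and CYP82A3. Relatives of the CYP81E enzymes hydroxylate isoflavones, so these genes touch the isoflavonoid route although their family numbers were not left out. In 7 of the 8, all arrays lay below 3.31. The exception was CYP81E11, which read 3.72, 3.29 and 3.09 in water and 3.04, 2.59 and 2.34 with LCO, with water 1 alone above background. CYP71D8 and CYP82A3 had other probe sets that were tested, and the remaining 4 genes had none.

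The oxylipin P450s of family CYP74 use fatty acid hydroperoxides: allene oxide synthase of the CYP74A subfamily makes the precursor of jasmonate, and hydroperoxide lyase makes leaf aldehydes. The jasmonate and oxylipin role, assigned by family number, holds 3 CYP74 genes and CYP94D24, which is not of that family. None of the 4 passed, and all 4 estimates were lower with LCO. AOS2 (CYP74A3) read 7.74, 7.90 and 7.07 on water 1, 2 and 3 and 7.03, 6.98 and 6.70 on LCO 1, 2 and 3. The groups did not overlap, though water 3 at 7.07 lay just above LCO 1. The change was -0.67 (SE 0.23, limma adjusted p = 0.139) with all arrays and -0.91 (adjusted p = 0.0281) without water 3. LOC100810890, with CYP74A2 and HPL as synonyms, read 10.01, 9.93 and 9.05 in water and 9.64, 9.09 and 8.97 with LCO. Here water 3 lay among the LCO arrays, and the change was -0.43 (SE 0.30). CYP74A1 read 5.55, 5.06 and 4.23 in water and 4.94, 4.50 and 4.23 with LCO (change -0.39, SE 0.35). The groups overlapped, with water 3 and LCO 3 the lowest arrays. CYP94D24, of a family that hydroxylates fatty acids, read between 3.41 and 3.75 on all arrays, just above the background level, and had a change of -0.09.

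CYP90A15 belongs to the subfamily of CPD, an enzyme of brassinosteroid synthesis known from Arabidopsis. It read 7.79, 7.73 and 7.39 on water 1, 2 and 3 and 7.19, 7.06 and 6.73 on LCO 1, 2 and 3. The groups did not overlap, and the lowest array in each was number 3. The change of -0.64 (SE 0.17, 95% interval from -1.04 to -0.24) did not pass (limma adjusted p = 0.0864), and passed without water 3 (adjusted p = 0.0479). CYP78A3 (LOC100799906), of a family that promotes organ growth in Arabidopsis, read 8.94, 9.18 and 8.46 in water and 8.61, 8.19 and 8.37 with LCO. LCO 1 lay above water 3, and the change was -0.47 (SE 0.21, adjusted p = 0.214).

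CYP72A67 belongs to a subfamily whose legume members oxidise triterpenes on the way to saponins. Its 2 probe sets had closely matching values of change, -0.81 (SE 0.28) and -0.75 (SE 0.31), with limma adjusted p = 0.139 and 0.185. The brighter read 10.56, 10.22 and 9.75 on water 1, 2 and 3 and 9.85, 9.18 and 9.06 on LCO 1, 2 and 3. Water 3 lay below LCO 1 in both, so the groups overlapped. CYP77A3, of a family that oxidises fatty acids for cutin in Arabidopsis, had changes of 0.23 (SE 0.18) and 0.19 (SE 0.16), with overlapping groups in both probe sets.

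Family CYP97 holds plastid hydroxylases of carotenoid rings, and its CYP97C enzymes complete lutein synthesis. CYP97B2 read 8.69, 8.67 and 8.64 in water and 8.82, 8.86 and 8.86 with LCO. Its SD was 0.02 in each group and the groups did not overlap, yet the change was only 0.18 (SE 0.08, limma adjusted p = 0.232). CYP97C10 read 8.94, 8.99 and 9.24 in water and 9.0, 9.66 and 9.74 with LCO, with LCO 1 below water 3 (change 0.41, SE 0.21, adjusted p = 0.272).

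Members with several tested probe sets kept 1 sign of change within each of the 6 genes concerned. The changes of a gene's probe sets lay within 0.16 of each other for CYP72A67, CYP76O2, CYP77A3 and CYP83D1, but 0.95 apart for CYP82A2 and 1.59 apart for CYP82A3. By position the members are scattered in the RefSeq annotation: the nearest pair, CYP82C1 and CYP71D8, has 20 protein-coding genes between them. Where groups did not overlap, water 3 was the water array nearest the LCO mean in 7 of 11 members (63.6%), against 52.8% of all such probe sets tested. LCO 3 was the LCO array farthest from the water mean in 7 of 11 (63.6%), against 41.4% of all such. Both counts hold the same 7 probe sets, of which 3 measure CYP82A2, so they are not separate observations.

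Which arrays enter the fit decided most calls among the members. The number of called members was 1 without water 1, LCO 1, LCO 2 or LCO 3, 0 without water 2, and 7 without water 3. Over all tested probe sets, leaving out a water array gave calls in 0.68% (water 1), 0.659% (water 2) and 7.54% (water 3). Leaving out an LCO array gave 1.95% (LCO 1), 1.42% (LCO 2) and 0.994% (LCO 3).

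**Figure D4:**
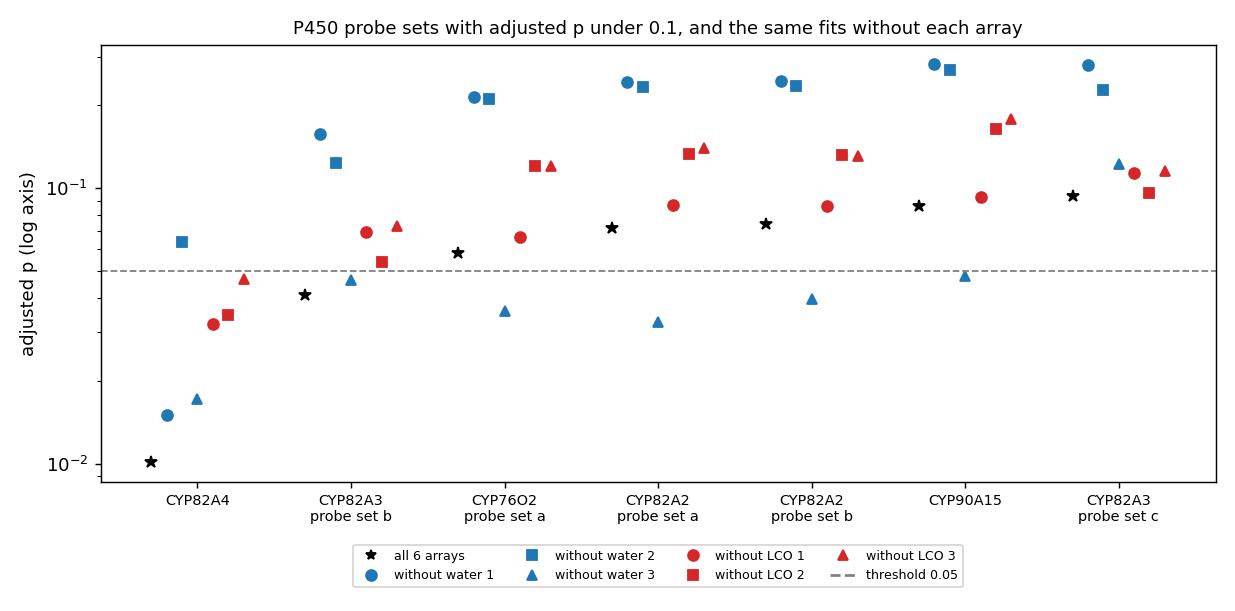
Adjusted p (log axis) of the 7 P450 probe sets whose limma adjusted p was under 0.1, from all 6 arrays (stars) and with each array left out (blue for water, red for LCO). Triangles in blue, the fits without water 3, fall below the dashed threshold of 0.05 for 6 of the 7, while only CYP82A4 stays below it in most fits.

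The array also carries 3 control probe sets, named P450, along 1 transcript, which read RNA quality; the tables used do not name its gene. Its 5′ probe set read 7.91, 8.28 and 7.50 on water 1, 2 and 3 and 6.94, 7.40 and 5.54 on LCO 1, 2 and 3. Its 3′ probe set read 8.92, 9.24 and 8.46 in water and 9.07, 9.14 and 8.46 with LCO. Number 3 was thus the lowest array of each group at both ends, and the groups differed without overlap at the 5′ end but not at the 3′ end. The 3′ minus 5′ difference was 0.98 ± 0.03 in water and 2.27 ± 0.60 with LCO (log2, SD, n = 3, two-sided exact permutation p = 0.1). LCO 3, where this difference was largest at 2.92, was also the array with the lowest CYP82A2, CYP90A15, CYP72A67 and AOS2 values. Other members differed: among the LCO arrays, CYP82A4 was lowest on LCO 1, and CYP78A3 and CYP83E8 on LCO 2. The same difference was 1.48 ± 0.13 in water and 1.31 ± 0.05 with LCO for an actin control, and 0.39 ± 0.35 and 0.60 ± 0.27 for the GlutTrans control. Its part in the P450 results was not tested.

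**Figure D5:**
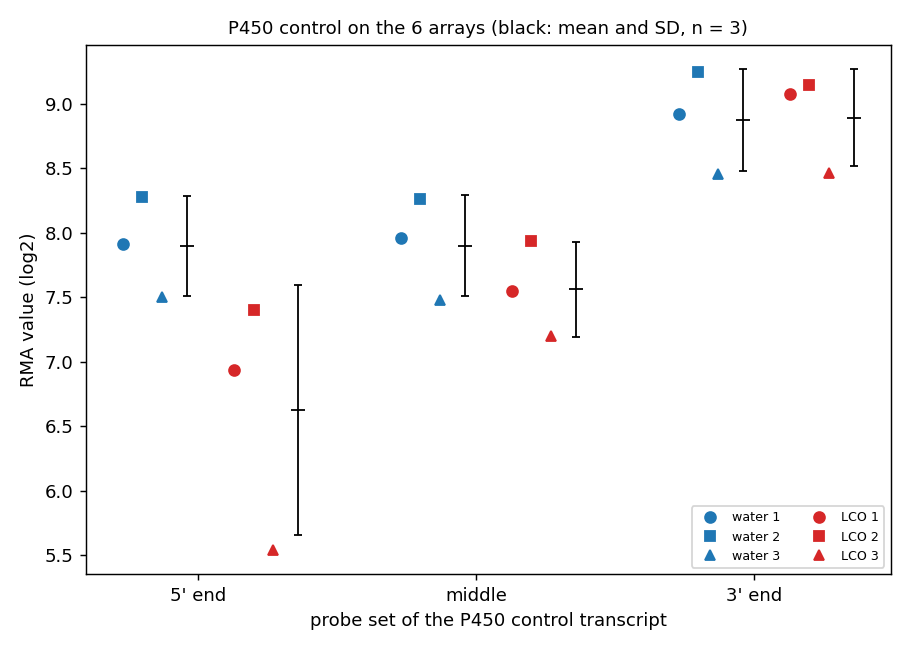
Log2 RMA values of the 3 P450 control probe sets at the 5′ end, middle and 3′ end of the transcript, water in blue and LCO in red, with mean and SD of 3 arrays in black. The LCO arrays lie below all water arrays at the 5′ end, with LCO 3 lowest at 5.54, and overlap with them at the 3′ end.

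Neighbouring steps were read from lists by symbol. The P450 families left out hold enzymes of the phenylpropanoid and isoflavonoid routes, among others. They had 1 of 16 tested probe sets lower past the threshold, none higher and a median change of -0.42. That is 6.25% of the list, beside 1.88% of all tested probe sets lower and 1.67% higher. The 1 that fell was a probe set of CYP93A1, of the pterocarpan branch, at -1.10 (SE 0.21, limma adjusted p = 0.0447). The other tested CYP93A1 probe set had -0.01 (adjusted p = 0.943). CYP93E1, a soyasaponin enzyme that shares the triterpene role with CYP72A67, had changes of 0.00, -0.14 and -0.31 in its 3 tested probe sets. Glutathione S-transferases, which act after P450s in detoxification, had 5 of 43 lower (11.6%) and 1 higher (2.33%), with a median of -0.11. UDP-glycosyltransferases, which add sugars to hydroxylated products, had 2 of 8 lower (25%) and none higher (median -0.42). The tested probe sets of these lists are of 7 left-out P450 genes, 29 transferase genes and 5 glycosyltransferase genes. Their shares and medians thus count some genes several times.

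Genes around the oxylipin P450s, including AOS2 and LOC100810890 themselves, had none of 36 probe sets past the limma threshold, with 31 estimates lower (86.1%) and a median of -0.56, and 13 (36.1%) had an unadjusted p under 0.05. Over all tested probe sets, 14930 of 29286 estimates were lower, and 25.8% had an unadjusted p under 0.05. The groups did not overlap in 9 of the 36 (25%), against 31.5% of all tested. These 36 probe sets are of 15 genes, so they are not 36 separate measurements. Carotenoid genes beside the CYP97 enzymes had none of 6 past the threshold, with a median of -0.23 and 1 with an unadjusted p under 0.05. Both CYP97 estimates were above 0. Gibberellin and brassinosteroid genes had none of 3 (median 0.07, none with an unadjusted p under 0.05), and the 1 sterol gene tested, SMT2-2, had a change of 0.15. No probe set matched the lists of P450 electron donors and abscisic acid genes by symbol.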

How the data were processed

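Leaf RNA was measured on 6 one-colour Affymetrix soybean arrays, 3 per group. The deposited log2 values, 1 for each probe set on each array, were made by the authors using RMA, as the submitters' processing notes record. RMA corrects background, brings arrays to a common distribution and summarises probes. Log2 was read from their range of 1.45 to 14.6, since no source used here states the scale, the software or its version. All 6 columns were used, grouped by title.

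Probe sets were paired with genes through the platform table and RefSeq symbols and synonyms (assembly Glycine_max_v4.0); all 24 P450 genes matched. The table maps every P450 probe set used here to 1 gene. A soybean probe set entered the test if its 6-array mean exceeded percentile 90 of the means of 23394 probe sets of other organisms, a log2 value of 3.31. LCO was compared with water over the 29286 that remained, by limma 3.58.1 (lmFit, eBayes, group as the only term) under R 4.3.3. Adjusted p-values are Benjamini-Hochberg values over all 29286, with a threshold of 0.05. Intervals are 95% intervals of that fit. A lower bound of the fold is given for a gene with all arrays of its dimmer group below 3.31. The fit was tested on simulated data. Single values were compared with two-sided exact permutation tests in scipy 1.17.1; figures used matplotlib 3.10.9. The number of arrays limits the precision.

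Members and lists were chosen with earlier results of these data known. Probe sets named with values are those past the threshold, the 10 with the largest rise and the 10 with the largest fall, the brightest of each role, and the other tested probe sets of those genes. Probe sets outside that rule are given values to fill out a family, role or list, and were chosen after their values were seen. Replicate numbers were not taken as pairs, because the series is described as a completely randomised design. Across probe sets, deviations from the group means correlated between same-numbered arrays at r = 0.45 for number 1, -0.04 for number 2 and 0.53 for number 3. Between arrays of unlike number, r ran from -0.54 (water 3 with LCO 1) to 0.45 (water 2 with LCO 1). These correlations do not settle whether the numbers mark pairs. Alternatives changed the dim-probe filter, the normalization, the eBayes prior, the weighting of arrays, the use of a replicate block, the statistic (an ordinary t), the unit (1 mean per gene), the threshold and the arrays used (water 1 and 2 averaged, or each array left out).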

Additional observations from a re-analysis of the deposited data

How the results depend on the processing

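Of 15 alternatives for single probe sets, 5 leave the estimates as they are and can change only the test. Under the other 10, all 210 estimates of the 21 named probe sets kept the direction given in the report. Over the 15, 274 of 314 fits kept their side of the threshold. The count of called P450 probe sets, 2 in the report, was 1 with the filter at percentile 95, 1 with 1 mean per gene, 1 with water 1 and 2 averaged, 0 with an ordinary t statistic, 7 at an adjusted p under 0.1, 11 with the replicate block and 19 with array weights, and ran from 0 to 7 with an array left out. Of all probe sets tested in each setting, 3.55% were called with the filter at percentile 95, 0.693% with water 1 and 2 averaged and 0.659% (193) with the ordinary statistic. The share was 10.3% at an adjusted p under 0.1, 10.3% (3010) with the block and 32.6% (9544) with array weights. It ran from 0.659% to 7.54% with an array left out. With 1 mean per gene, 4.86% of genes were called. These shares of probe sets also stand beside the list counts below. In limma with all arrays, 12 members had an unadjusted p under 0.05. The weights were 0.36 for water 3 and LCO 1 and 2.21 to 2.62 for water 1, water 2 and LCO 2. The block rests on numbers the sources do not tie to shared plants or days, and not every array correlated best with its own number. Among probe sets of the lists outside the members, 9 were called, against 1 with the ordinary statistic, 2 with water 1 and 2 averaged, 21 at an adjusted p under 0.1, 37 with the replicate block and 53 with array weights, and from 2 to 21 with an array left out. CYP82A3 probe set b kept its change of 2.24 but not its call with the ordinary statistic (adjusted p = 0.144), and had 2.20 with water 1 and 2 averaged (0.130) and 1.80 to 2.50 with an array left out. CYP82A4 had a fitted difference of -1.42 with the ordinary statistic (adjusted p = 0.0740) and from -1.57 to -1.32 with an array left out; these are no measured fold, since its LCO arrays lay below background. The LCO minus water gap in the 3′ minus 5′ value of the P450 control, 1.29, ran from 0.96 to 1.55 with an array left out. The cause of these differences was not tested.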
